A study of Mus musculus with 24 samples.

Results

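Rgs2, Rgs4, Rgs7, Rgs8, Rgs10, Rgs12, Rgs14, Rgs16, Rgs17 and Rgs20 are 10 genes for regulators of G-protein signalling, followed here through 24 RNA-seq libraries of mouse cortical neurons in culture. They were listed by symbol and had been selected on their measured levels in these libraries, in 30 min of KCl against rest and in each construct against the non-targeting control. Those comparisons are therefore described by fold changes and by how many genes a fit over all genes called, with nothing read from the calls of members. Where groups did not overlap, this describes the libraries only, as the share of all genes without overlap was not counted. Adjusted p-values are given only for comparisons among the knockout cultures. The 10 genes are a small subset of the 55177 genes in the tables. All 10 passed the low-count filter at both culture ages, among 19822 genes tested at 7 days in vitro (DIV7) and 20940 tested at DIV18.

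RGS proteins bind active G-protein alpha subunits and speed the hydrolysis of their GTP, so that signalling from G-protein-coupled receptors ends sooner. Rgs2, Rgs4, Rgs8 and Rgs16 belong to the R4 subfamily of small proteins with little outside the RGS domain, and Rgs2 is a textbook early-response gene of neurons. Rgs7 belongs to the R7 subfamily, whose proteins pair with a dedicated G beta subunit. Rgs10, Rgs12 and Rgs14 form the R12 subfamily, and Rgs17 and Rgs20 the RZ subfamily, which acts on Gi-class alpha subunits including Gz.

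The series asked which genes depend on Smarcc2, a subunit of BAF chromatin remodelling complexes, in resting and depolarized neurons. The neurons came from the cortex of mouse embryos at E16.5, and the labels count the cortex of each embryo as a biological replicate. Every culture, depolarized or not, had been silenced overnight with 1 µM tetrodotoxin (a sodium channel blocker) and 100 µM D-AP5 (an NMDA receptor blocker). Depolarization was by 50 mM KCl, for 30 min. At DIV7, wild-type neurons in 0.1% DMSO gave 2 resting and 2 depolarized libraries of polyA RNA. At DIV18, cultures with a non-targeting guide RNA (NT) gave 2 resting and 2 depolarized libraries after removal of ribosomal RNA. The other DIV18 cultures carried a Smarcc2 knockout guide together with an empty vector (3 resting, 3 depolarized), wild-type Smarcc2 (WT addback; 2 resting, 3 depolarized), Smarcc2 S586E (3, resting only) or Smarcc2 S586A (2, depolarized only). Knockout here means a culture that received the guide, in which some Smarcc2 RNA was still counted.

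A DIV7 library held 24536056 to 30135576 estimated counts and a DIV18 library 14510199 to 24024959. Smarcc2 itself stood at 237 and 265 CPM (TMM-normalized counts scaled to a common library total) in resting NT libraries and between 47.1 and 64.1 CPM in resting vector libraries. The KCl marker Fos went from 3.65 and 4.47 CPM at rest to 598 and 618 CPM after KCl at DIV7, and the stimulus genes Fosb, Npas4, Egr1, Arc and Nr4a1 had log2 fold changes from 3.23 to 8.01 there. In NT cultures at DIV18 Fos went from 7.25 and 7.52 CPM to 38.5 and 113 CPM. After KCl it ran from 51.2 to 111 CPM in vector and from 32.7 to 197 CPM in WT addback libraries. Induction was thus uneven between DIV18 libraries, and its part in the KCl comparisons of the members was not tested. The summed level of 5 neuronal markers lay between 3162 and 3206 CPM in resting NT and between 2973 and 3473 CPM in resting vector libraries, and all 5 were detected.

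Per length, on the TPM scale (transcript abundance divided by effective length, with a fixed sum per library), the members covered more than an order of magnitude. At DIV7 the mean over the 4 libraries was 114 ± 17.4 TPM (SD, n = 4) for Rgs7 and 73.6 ± 22.0 TPM for Rgs4, followed by Rgs10 (47.9 ± 2.21 TPM) and Rgs2 (46.8 ± 15.7 TPM). Rgs20 (16.9 ± 1.33 TPM), Rgs12 (13.6 ± 2.12 TPM), Rgs17 (11.1 ± 0.889 TPM) and Rgs8 (10.4 ± 2.01 TPM) formed a middle group. Rgs16 (6.83 ± 1.90 TPM) and Rgs14 (3.26 ± 0.986 TPM) were lowest. Neighbours in this order overlapped from library to library except that every value of Rgs2 and Rgs10 lay above every value of Rgs20, and the highest Rgs14 value, 4.68 TPM, lay below the lowest Rgs16 value, 4.97 TPM.

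At DIV18 Rgs4 was the most abundant member per length, at 49.4 ± 12.8 TPM (SD, n = 20 libraries of 8 groups), and its lowest library, 35.0 TPM, lay above the highest of Rgs7, 30.6 TPM. Rgs7 averaged 26.2 ± 2.68 TPM, and the other 8 members averaged between 3.73 TPM (Rgs14) and 9.69 TPM (Rgs17) with overlapping ranges between neighbours. The ages differ in RNA selection, so a difference in level between DIV7 and DIV18 cannot be told apart from it and none is read here.

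In DIV7 neurons, 30 min of KCl went with higher Rgs2, Rgs16, Rgs4 and Rgs7, with lower Rgs14 and with little movement of the other members. Rgs2 (ENSMUSG00000026360.9; GRCm38, chromosome 1, 143999338 to 144004161, minus strand, protein-coding), a regulator that prefers Gq, was at 28.6 and 25.0 CPM at rest and at 52.9 and 48.1 CPM after KCl. Both depolarized libraries lay above both resting ones, with a fitted fold of 1.88 (log2 0.91, SE 0.0881). Rgs16 (ENSMUSG00000026475.7; chromosome 1, 153740349 to 153745468, plus strand), a regulator of Gi and Gq, was at 6.74 and 6.04 CPM at rest and at 11.3 and 9.62 CPM after KCl (log2 fold change 0.71, SE 0.132). Its groups did not overlap either.

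Rgs4 (ENSMUSG00000038530.11; chromosome 1, 169741477 to 169747642, minus strand), a regulator of Gi and Gq abundant in cortical neurons, was at 107 and 79.0 CPM at rest and at 165 and 114 CPM after KCl. The groups did not overlap, but libraries within a group differed widely, and the log2 fold change of 0.58 had an SE of 0.189. Rgs7 (ENSMUSG00000026527.13; chromosome 1, 175059087 to 175492500, minus strand), a regulator of Gi and Go, went from 130 and 105 CPM to 157 and 136 CPM (log2 fold change 0.31, SE 0.108). The depolarized libraries were again the higher ones.

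The promoters of the members with the largest folds at DIV7 show what letters lie before their start sites. The sequences are from RefSeq on GRCm38.p6, 250 bases before to 50 bases after the annotated start, 5′ to 3′ on the gene's strand, with motif matches in capitals. They are at chr1:144004100-144004399 (minus strand) for Rgs2, chr1:153740103-153740402 (plus) for Rgs16 and chr1:169747593-169747892 (minus) for Rgs4.
Rgs2: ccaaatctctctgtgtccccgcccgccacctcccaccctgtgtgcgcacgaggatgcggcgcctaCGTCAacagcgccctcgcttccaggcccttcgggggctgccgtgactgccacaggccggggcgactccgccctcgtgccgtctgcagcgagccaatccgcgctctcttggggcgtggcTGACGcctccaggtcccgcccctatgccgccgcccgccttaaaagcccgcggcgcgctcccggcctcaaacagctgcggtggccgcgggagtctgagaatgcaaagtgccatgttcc
Rgs16: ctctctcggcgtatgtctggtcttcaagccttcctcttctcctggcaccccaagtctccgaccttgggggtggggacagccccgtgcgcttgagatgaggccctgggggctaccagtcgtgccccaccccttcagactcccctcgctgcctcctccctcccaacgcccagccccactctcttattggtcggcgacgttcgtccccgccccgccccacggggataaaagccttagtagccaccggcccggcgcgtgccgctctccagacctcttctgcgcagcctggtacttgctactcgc
Rgs4: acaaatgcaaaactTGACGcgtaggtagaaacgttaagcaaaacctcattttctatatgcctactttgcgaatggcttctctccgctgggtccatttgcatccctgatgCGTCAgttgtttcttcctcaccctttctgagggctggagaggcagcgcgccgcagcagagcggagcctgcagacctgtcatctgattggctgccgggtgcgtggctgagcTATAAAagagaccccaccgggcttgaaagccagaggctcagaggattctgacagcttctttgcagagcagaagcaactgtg
The motifs searched on both strands were the CRE (TGACGTCA, present in 1.79% of 32851 promoters of this length), its core (TGACG, which the CRE contains; 20.8%), the AP-1 site (TGANTCA; 7.81%), the EGR site (GCGTGGGCG; 0.612%), the CArG box (1.63%) and the TATA box (TATAAA; 13.6%). The capitals mark CRE cores starting at -185 and -67 from the start in Rgs2, and CRE cores at -236 and -141 and a TATA box at -31 in Rgs4. The Rgs16 window held no match.

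Promoters were found for 8 of the 10 members (11 promoters), with no entry for Rgs14 and Rgs20. In the others the search matched a CRE core at -46 in 1 promoter of Rgs8, a CRE core at -82 and an AP-1 site at -22 in 1 promoter of Rgs12, and an AP-1 site at -122 in Rgs17. The promoters of Rgs7 and Rgs10 held none of the 6 motifs. A match is a run of letters and is not evidence of binding.

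Of the other members, all but Rgs14 moved little at DIV7. Rgs8 (ENSMUSG00000042671.12; chromosome 1, 153653025 to 153700323, plus strand), the protein-coding neighbour of Rgs16, went from 20.6 and 24.1 CPM to 22.4 and 26.7 CPM. Rgs14 (ENSMUSG00000052087.14; chromosome 13, 55369732 to 55384687), a scaffold that also binds Ras-family GTPases, was the member with the largest difference downwards, from 4.49 and 3.83 CPM to 3.11 and 3.35 CPM (log2 fold change -0.37, SE 0.171). Rgs10 (ENSMUSG00000030844.11; chromosome 7, 128373621 to 128418758), Rgs12 (ENSMUSG00000029101.16; chromosome 5, 34949445 to 35039644), Rgs17 (ENSMUSG00000019775.17; chromosome 10, 5825663 to 5922400) and Rgs20 (ENSMUSG00000002459.17; chromosome 1, 4909576 to 5070285) had log2 fold changes between -0.05 and 0.13.

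Of the 10 members, Rgs2 and Rgs16 were called higher at DIV7, against 7.34% of all genes tested (17.0% in either direction). A call is an adjusted p under 0.05 in edgeR's quasi-likelihood test with Benjamini-Hochberg adjustment over all genes. Because this contrast helped choose the members, nothing is read from that count. The median log2 fold change of the members was 0.13 and that of all genes -0.0014. Rgs16 was not called without resting replicate 2 (log2 fold change 0.63), whereas Rgs4 and Rgs7 were called as well without depolarized replicate 2 (0.82 and 0.41).

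**Figure D1:**
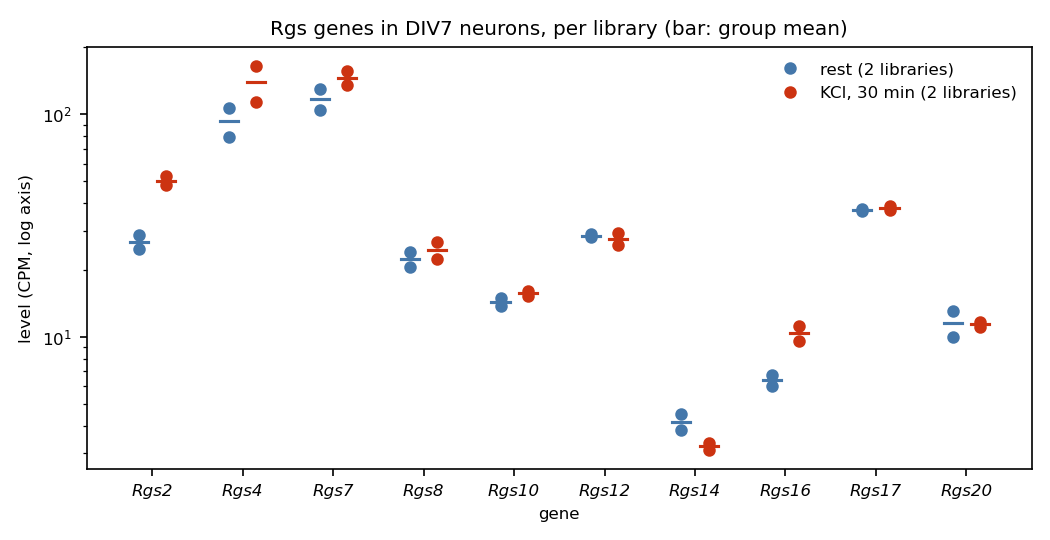
Level of the 10 Rgs genes in DIV7 neurons, in CPM on a log axis; points are libraries (blue, rest; red, 30 min KCl) and bars are group means of 2 libraries. Both red points lie above both blue points for Rgs2, Rgs4, Rgs7 and Rgs16, and also for Rgs10 (log2 fold change 0.13). The share of all genes that separate in this way was not counted, so nothing is read from the number of members. Rgs2 goes from 25.0 to 28.6 CPM at rest to 48.1 to 52.9 CPM after KCl.

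At DIV18 the same KCl treatment went with no call among the members in any construct. NT cultures had Rgs2 at 10.5 and 10.8 CPM at rest and at 13.4 and 15.3 CPM after KCl, so both depolarized libraries were the higher ones (log2 fold change 0.43, SE 0.228). Vector cultures started higher, at 24.6, 17.0 and 21.5 CPM, and lay at 15.4, 20.9 and 18.7 CPM after KCl, with overlapping groups (-0.20, SE 0.182). In WT addback cultures Rgs2 was at 18.3 and 11.8 CPM at rest and at 15.6, 20.1 and 13.5 CPM after KCl (0.13, SE 0.204).

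Rgs16 did not separate rest from KCl in any of the 3 constructs with both states. It was at 12.9 and 13.3 CPM in resting and at 14.6 and 12.9 CPM in depolarized NT cultures (log2 fold change 0.08). In vector cultures it was at 25.0, 26.5 and 15.2 CPM against 19.9, 22.9 and 19.1 CPM (-0.11). Rgs8 had higher levels after KCl in the knockout cultures: vector libraries were at 37.5, 45.3 and 39.7 CPM at rest and at 50.6, 59.8 and 48.0 CPM after KCl, without overlap (log2 fold change 0.37, SE 0.118). WT addback libraries were at 39.3 and 43.6 CPM at rest and at 51.4, 55.3 and 47.5 CPM after KCl (0.31, SE 0.131), and NT libraries overlapped, at 50.3 and 55.1 CPM against 53.1 and 58.2 CPM (0.08).

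With edgeR, 0 of 10 members were called in the KCl comparison of NT cultures (0.00955% of all genes), of vector cultures (0.0716%) and of WT addback cultures (0.043%). At an unadjusted p under 0.05 the counts were 0, 1 and 1, the last both being Rgs8, beside 4.33%, 10.3% and 4.97% of all genes. DESeq2 called 0 members in each, and 15, 52 and 32 of all genes. The shares of all genes called after adjustment are as low, so the absence of calls says little about the members.

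The response to KCl was also set against that of another construct. These differences are built from comparisons that selected the members, so they are description. The vector response minus the NT response of Rgs2 was -0.63 on the log2 scale (SE 0.291). With edgeR 0 of 10 members were called in it (0.0% of all genes) and 0 in the WT addback response minus the vector response (0.0%). At an unadjusted p under 0.05 the counts were 1 and 0, beside 8.81% and 3.67% of all genes. DESeq2 called 0 members in both, and 7 and 1 of all genes.

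Resting knockout neurons with empty vector had higher Rgs2, Rgs16, Rgs7 and Rgs4 and lower Rgs8 than resting NT neurons. The vector libraries had Rgs2 at 17.0 to 24.6 CPM, all above the NT libraries at 10.5 and 10.8 CPM (log2 fold change 0.98, SE 0.210). Rgs16 was at 25.0, 26.5 and 15.2 CPM against 12.9 and 13.3 CPM (0.77, SE 0.219), with vector replicate 3 close to NT. Rgs7 was at 73.0, 67.5 and 72.7 CPM against 58.6 and 55.9 CPM (0.31, SE 0.0821), a small and even difference.

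Rgs4 was at 153, 153 and 269 CPM in resting vector libraries and at 126 and 119 CPM in NT. The groups did not overlap, but replicate 3 was far above the others, and the log2 fold change of 0.64 (SE 0.251) became 0.32 without that library. Rgs8 was lower in all 8 resting knockout libraries than in NT: 37.5, 45.3 and 39.7 CPM with vector, 39.3 and 43.6 CPM with WT, and 35.9, 49.4 and 38.1 CPM with S586E, against 50.3 and 55.1 CPM. Its log2 fold changes were -0.37, -0.35 and -0.36.

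Every resting WT and S586E addback library had Rgs2 above both NT libraries, but the lower WT library lay close to them. So few libraries per group cannot show whether WT addback brought Rgs2 back to the NT level. Rgs2 was at 18.3 and 11.8 CPM with WT (log2 fold change against NT 0.49, SE 0.227) and at 24.2, 18.1 and 19.2 CPM with S586E (0.94, SE 0.210), each above 10.8 CPM. Rgs4 was at 160 and 141 CPM with WT and at 169, 175 and 238 CPM with S586E, also above both NT libraries. Rgs16 was at 18.2 and 16.7 CPM with WT (0.41) and overlapped NT with S586E, at 13.0, 16.6 and 18.7 CPM (0.30).

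Rgs2, Rgs16 and Rgs7 were called higher in vector against NT at rest, 3 of 10 against 2.13% of all genes called higher (5.9% in either direction). In S586E against NT the count was 1, Rgs2, against 1.04% called higher (2.78% either way). In WT addback against NT it was 0 with edgeR (0.105% of all genes) and 0 with DESeq2 (115 of all genes). At an unadjusted p under 0.05 it was 3 (Rgs2, Rgs7 and Rgs8), beside 7.88% of all genes. These contrasts also chose the members, and all 3 share the same 2 NT libraries, so the counts are description only.

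The calls rest on few libraries. Without either resting NT library none of the 3 vector calls passed, although the log2 fold changes of Rgs2 were 0.95 and 1.00, and without vector replicate 1 Rgs2 alone passed (0.85). Rgs16 was also not called without vector replicate 2 (0.62), nor Rgs7 without vector replicate 3 (0.30). The S586E call of Rgs2 was lost without NT replicate 1, NT replicate 2 or S586E replicate 1 (0.91, 0.97 and 0.81). Where 1 NT library was left, the fit assumed that it varies like the other groups.

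Markers of other cells differed between the same groups. In resting NT libraries 7 astrocyte markers summed to 1365 to 1609 CPM, against 902 to 1251 CPM with vector, 883 to 1076 CPM with WT and 1157 to 1285 CPM with S586E. The 8 oligodendrocyte-lineage markers summed to 197 to 207 CPM in NT, 134 to 152 CPM with vector (Sox10 at 0), 110 to 137 CPM with WT and 141 to 162 CPM with S586E. The 2 markers of dividing cells summed to 13.0 to 25.6 CPM in NT, 1.06 to 2.74 CPM with vector, 2.75 to 3.18 CPM with WT and 1.91 to 3.41 CPM with S586E. Against NT, vector, WT and S586E had 1, 0 and 0 astrocyte markers called lower. For the oligodendrocyte lineage the counts were 4, 0 and 3, and for dividing cells 2, 0 and 2. Median log2 fold changes of the oligodendrocyte-lineage markers were -1.78, -1.61 and -1.45.

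The 7 microglial markers were low, summing to 6.93 to 8.11 CPM in NT and 3.80 to 3.82 CPM with vector, where C1qa, C1qb and Tmem119 were at 0. They summed to 6.03 to 8.92 CPM with WT (C1qa and C1qb at 0) and 5.02 to 6.46 CPM with S586E (C1qb and Tmem119 at 0). Of the 3 tested, 1, 0 and 0 were called lower than in NT with vector, WT and S586E. The 7 fibroblast and vessel markers overlapped, at 10.9 to 13.2 CPM in NT and 8.15 to 14.7 CPM with vector, with Cldn5 at 0 in both. The sums of excitatory markers (3 genes; 1694 to 1741 CPM in NT, 1540 to 1778 CPM with vector) and inhibitory markers (3 genes; 184 to 242 CPM and 127 to 332 CPM) also overlapped. The excitatory sum was mostly Slc17a7, at 1408 to 2082 CPM over the DIV18 libraries. Of the 3 excitatory markers 1 was called higher with vector than in NT (median log2 fold change of the 3, 0.60). With WT and S586E 0 were called (medians 0.39 and 0.46). The part of these differences in the Rgs results was not tested. In bulk RNA, fewer cells of a type and less RNA per cell cannot be told apart.

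**Figure D2:**
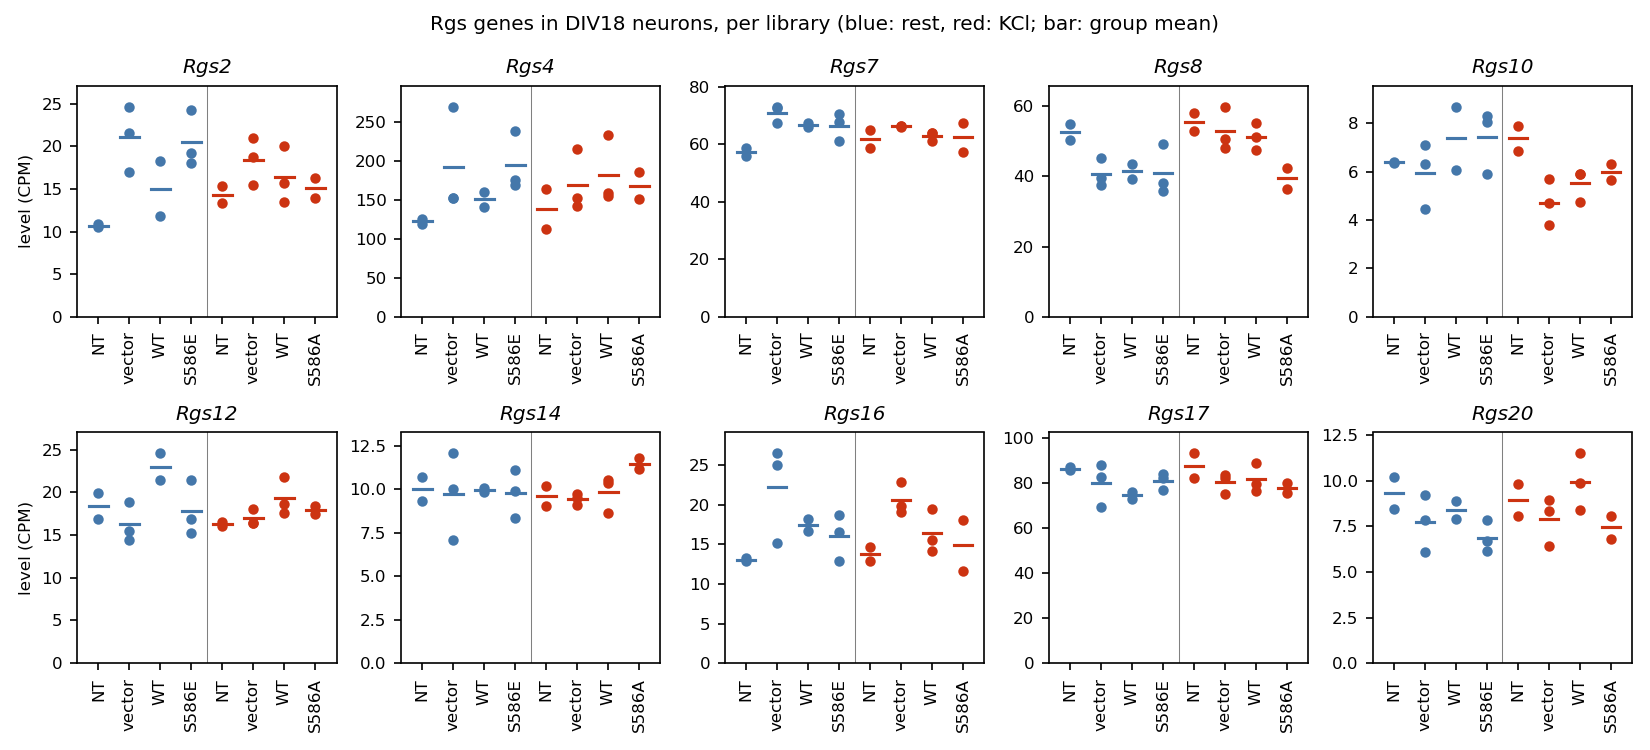
Level of each Rgs gene in the 20 DIV18 libraries, in CPM on a linear axis from 0; points are libraries, bars are group means, resting groups are blue and depolarized groups red. Resting vector libraries of Rgs2 (17.0 to 24.6 CPM) lie above the NT libraries (10.5 and 10.8 CPM), while those of Rgs8 (37.5 to 45.3 CPM) lie below NT (50.3 and 55.1 CPM).

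Under KCl the differences from NT were smaller for Rgs2 and were spread over other members. Rgs2 was at 13.4 and 15.3 CPM in depolarized NT, at 15.4, 20.9 and 18.7 CPM with vector, at 15.6, 20.1 and 13.5 CPM with WT and at 13.9 and 16.3 CPM with S586A, and its log2 fold changes were 0.35, 0.19 and 0.08. Rgs16 was at 19.9, 22.9 and 19.1 CPM with vector, above the NT libraries at 14.6 and 12.9 CPM (0.58, SE 0.220). With WT (15.6, 19.5 and 14.2 CPM) and S586A (18.1 and 11.6 CPM) it overlapped NT.

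Rgs10, a short R12 member also prominent in immune cells, was below NT in each depolarized knockout group. It was at 6.87 and 7.90 CPM in NT, at 4.71, 5.69 and 3.78 CPM with vector (log2 fold change -0.64, SE 0.225), at 5.92, 4.75 and 5.91 CPM with WT (-0.42) and at 5.67 and 6.31 CPM with S586A (-0.30). At rest it did not separate vector from NT (7.11, 6.33 and 4.46 CPM against 6.37 and 6.42 CPM; -0.10).

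The summed microglial, astrocyte, inhibitory and neuronal markers of all 3 depolarized knockout groups lay below the NT range. The 7 microglial markers summed to 8.29 to 8.91 CPM in depolarized NT, to 5.07 to 6.05 CPM with vector (C1qa and C1qb at 0), to 5.53 to 7.85 CPM with WT (C1qa at 0) and to 3.99 to 7.05 CPM with S586A (C1qa, C1qb and Tmem119 at 0). The 7 astrocyte markers summed to 1278 to 1767 CPM in NT, 739 to 868 CPM with vector, 795 to 1083 CPM with WT and 876 to 999 CPM with S586A, and 3, 0 and 1 of them were called lower than in NT. The 8 oligodendrocyte-lineage markers summed to 131 to 213 CPM in NT, 114 to 133 CPM with vector, 106 to 140 CPM with WT and 122 to 127 CPM with S586A. Most of that sum was Mbp, at 85.0 to 147 CPM over the DIV18 libraries. Against NT 3, 0 and 0 of the 8 were called lower, and their median log2 fold changes were -1.38, -0.80 and -1.05. The 3 inhibitory markers summed to 283 to 288 CPM in NT, 158 to 201 CPM with vector, 150 to 223 CPM with WT and 159 to 205 CPM with S586A. The 5 neuronal markers summed to 3152 to 3474, 2843 to 2899, 2984 to 3027 and 2852 to 3059 CPM in the same order. The 3 excitatory markers summed to 1657 to 1728, 1461 to 1617, 1519 to 1608 and 1670 to 1918 CPM. The part of these differences in the values of Rgs10 and the other members was not tested.

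Rgs8 was at 42.4 and 36.6 CPM with S586A, below every other depolarized library, of which the lowest was a WT library at 47.5 CPM. Its log2 fold change against NT was -0.49 (SE 0.144), while vector (-0.07) and WT (-0.11) overlapped NT. None of the 10 members was called against NT under KCl. The backgrounds were 2.67% for vector, 0.201% for WT and 0.43% for S586A, the counts at an unadjusted p under 0.05 were 2, 0 and 1, and DESeq2 called 0 in each.

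**Figure D3:**
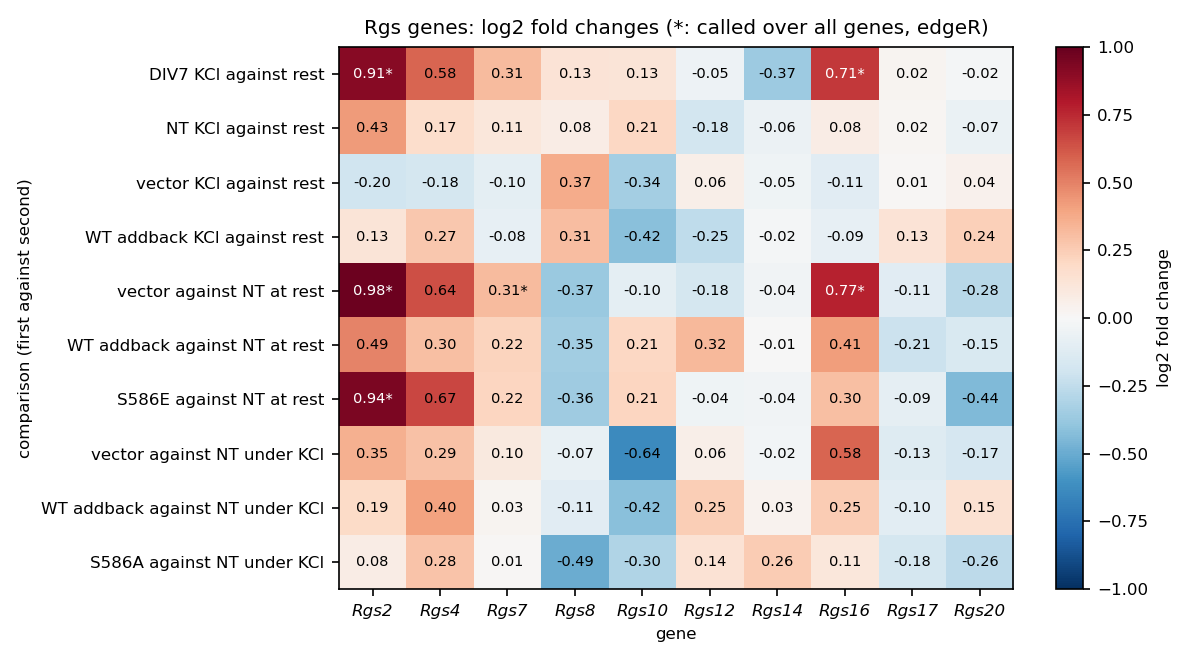
Log2 fold change of each Rgs gene (columns) in the 10 comparisons that chose the members (rows), with colour from blue (lower) to red (higher); an asterisk marks an edgeR call over all genes. Rgs2 has the highest value in both DIV7 KCl (0.91) and vector against NT at rest (0.98), and the lowest value of the plot is that of Rgs10 in vector against NT under KCl (-0.64).

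The constructs in knockout cultures were compared with each other in 6 comparisons that did not choose the members, although they share their libraries with those that did. With edgeR, 0 of 10 members were called in each. The background was as low: 0.0143% of genes for WT addback against vector at rest, 0.00955% under KCl, 0.0191% for S586E and 0.00955% for S586A against vector, and 0.0% for each substitution against WT. Counts of members at an unadjusted p under 0.05 were 2, 0, 1, 2, 2 and 1 in the same order. The shares of all genes at that threshold were 11.1%, 3.99%, 7.45%, 13.0%, 12.9% and 8.71%, so nothing is read from these counts. DESeq2 called 0 members in all 6, and 178, 6, 52, 215, 319 and 19 of all genes in the same order.

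Smarcc2 itself was at 756 and 816 CPM with WT and at 1164 to 1276 CPM with S586E at rest, and at 737 to 1089 CPM with WT and 1303 to 1340 CPM with S586A under KCl. Its part in the differences between constructs was not tested.

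The difference nearest to a call was that of Rgs12, a large multidomain regulator of Gi, in resting WT addback against vector. Rgs12 was at 21.4 and 24.5 CPM with WT and at 14.4, 15.5 and 18.9 CPM with vector, without overlap (log2 fold change 0.50, SE 0.145, unadjusted p 0.00273, adjusted p 0.211, edgeR). It passed in the fit without a low-count filter (adjusted p 0.0433, edgeR) and was 0.27 with length offsets; its adjusted p lay between 0.0433 and 0.756 across all alternatives (edgeR or DESeq2). S586E libraries, at 15.3, 16.9 and 21.5 CPM, ran from the vector range up to the lower WT library (against WT -0.36, SE 0.144, adjusted p 0.293, edgeR). Under KCl the WT libraries of Rgs12 (18.7, 17.5 and 21.7 CPM) overlapped vector (16.4, 16.4 and 18.1 CPM).

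The values of Rgs2 at rest overlapped between WT and vector, with a difference of -0.49 on the log2 scale (SE 0.205, adjusted p 0.391, edgeR) that lay between -0.85 and -0.20 under the alternatives. For S586E against WT the difference was 0.45 (SE 0.204, adjusted p 0.366), between 0.16 and 0.80 under the alternatives. S586E and vector hardly differed in it (-0.04). Rgs16 had a difference of -0.47 for S586E against vector at rest (SE 0.192, adjusted p 0.589, edgeR; -0.80 to -0.32 under the alternatives). For S586A against vector under KCl it was -0.47 as well (SE 0.219, adjusted p 0.375; -0.82 to -0.17). Rgs8 was lower with S586A than with vector (-0.42, SE 0.133, adjusted p 0.217, edgeR) and than with WT (-0.38, SE 0.132, adjusted p 0.515), without overlap in either. None of these passed over all genes, which does not show that the constructs act alike.

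Libraries numbered replicate 3 stood apart in Rgs4. All 4 DIV18 groups with a replicate 3 had their highest Rgs4 there: 269 CPM against 153 and 153 in resting vector, 238 against 169 and 175 in S586E, 215 against 141 and 152 in depolarized vector, and 233 against 159 and 154 in depolarized WT. NT, resting WT and S586A have no replicate 3. Rgs12 also had its highest value in replicate 3 of all 4 groups, whereas no member had its lowest there. Over all 20940 genes, 7.43% were highest and 8.25% lowest in replicate 3 of all 4 groups.

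Leaving out the 4 replicate 3 libraries, a choice made after these values were seen, moved the log2 fold change of Rgs4 in resting vector against NT from 0.64 to 0.32 and in S586E against NT from 0.67 to 0.49. Those of Rgs2 stayed at 0.97 and 0.99 and were called. Rgs16 was at 0.98 in vector against NT and called, and Rgs7, at 0.30, was not.

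Several members are annotated with many transcripts, from 1 for Rgs16 to 18 for Rgs12, and the deposited counts divide a gene among them. In the annotation, antisense genes overlap Rgs8 (Gm29529), Rgs12 (Gm43791), Rgs16 (Gm28513) and Rgs20 (Gm16041), and Atp6v1h overlaps Rgs20 on the other strand. Whether the counting used strand is not given in the sources used here, so reads of such partners may not be told apart. Rgs4 was essentially 1 form, Rgs4-201, at 98.2% or more of its counts in every library. Rgs2-201, a form annotated as subject to nonsense-mediated decay, took 19.0% to 20.8% of Rgs2 counts in the 4 DIV7 libraries, equally at rest (mean 19.8%) and after KCl (mean 19.9%). In DIV18 libraries its share was between 0% and 11.4%, with a median of 6.65%. In resting vector libraries it was between 8.36% and 11.4%.

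Rgs12 was mostly Rgs12-201, which starts at the upstream promoter, in DIV7 libraries (median 67.1%, range 66.9% to 68.7%). In DIV18 libraries Rgs12-201 held a median of 35.3% (range 4.84% to 53.6%) and the shorter Rgs12-206 a median of 52.0%, against 21.3% at DIV7. Rgs17-204 had medians of 72.6% at DIV7 and 91.3% at DIV18, and the retained-intron form Rgs14-204 had 15.5% and 1.15%. Shares at the 2 ages come from different RNA selections and cannot be told apart from it. Reads that fit several overlapping forms were divided by estimate, and the spread of Rgs12-201 between resting NT libraries (4.84% and 53.6%) shows how uncertain such a share can be.

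**Figure D4:**
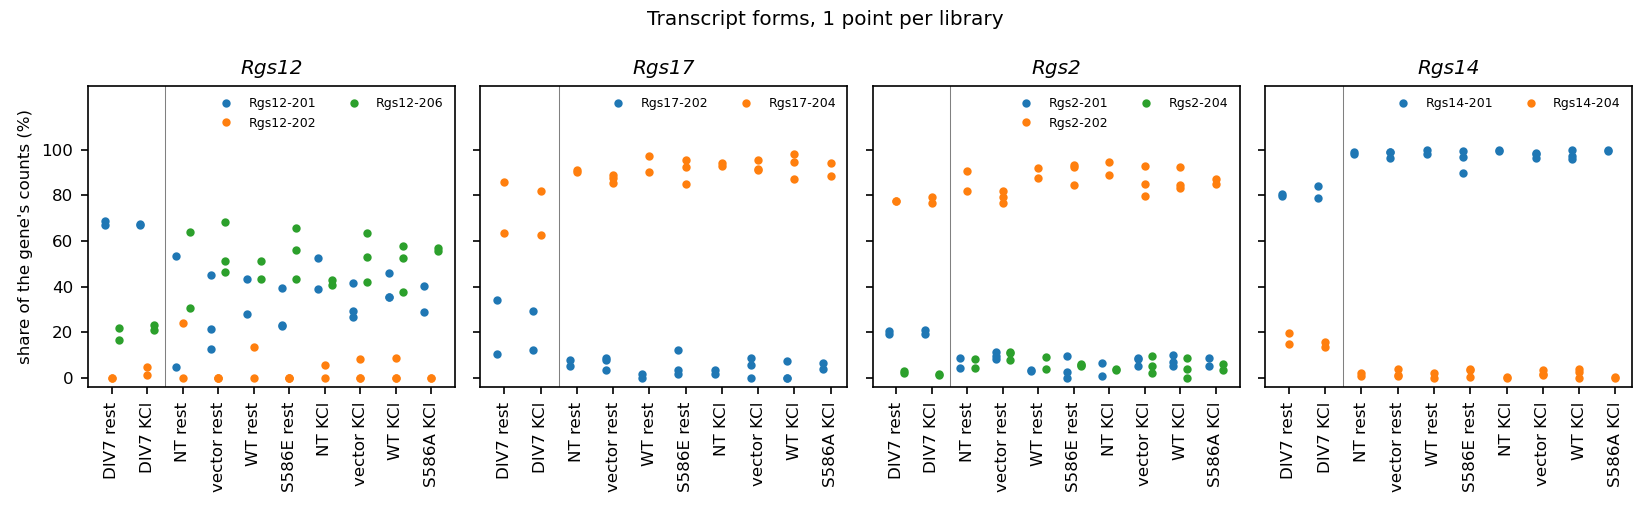
Share of each gene's estimated counts in its main transcripts (percent, 1 point per library, groups on the x axis; the grey line parts DIV7 from DIV18) for Rgs12, Rgs17, Rgs2 and Rgs14. Rgs12-201 lies near 67.1% in all 4 DIV7 libraries and scatters from 4.84% to 53.6% at DIV18.

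Across the 20 DIV18 libraries the members did not move as a block. The highest Pearson correlation of log2 CPM among the 45 pairs was 0.77, for Rgs2 with Rgs7, followed by 0.57 for Rgs8 with Rgs20. The lowest was -0.45, for Rgs7 with Rgs20. The neighbours Rgs8 and Rgs16 had a correlation of 0.01. These libraries share groups and replicate numbers, so the values are description.

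Among 10739 genes with a mean of at least 5 CPM, those most like each member over the same 20 libraries were named by correlation. For Rgs2 they were Cntn6 and Blcap (both 0.84), for Rgs4 Lrfn5 (0.91) and Cd24a (0.90), for Rgs7 Fam110b and Bscl2 (both 0.84), and for Rgs8 Sik1 (0.87) and Insr (0.84). For Rgs16 they were Baiap3 (0.90) and Ypel2 (0.86), for Rgs10 Cacna2d2 (0.85) and Fh1 (0.81), and for Rgs17 Desi2 (0.85) and Snx13 (0.83). Rgs12 (Hist1h3a 0.73, Tma16 0.71), Rgs14 (Arl16 0.72, Coq9 0.71) and Rgs20 (Rpp30 0.74, Ube2q2 0.71) had no gene above 0.74.

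The family has 11 further genes in the annotation, of which 7 were tested at DIV7 and 8 at DIV18. At DIV7, 2 were called lower after KCl and 0 higher: Rgs11 (R7), from 25.2 and 23.4 CPM to 12.5 and 11.8 CPM (log2 fold change -1.0035, SE 0.0883), and Rgs6 (R7), from 63.8 and 65.7 CPM to 53.4 and 55.8 CPM (-0.24, SE 0.0562). The Rgs6 call was lost without rest replicate 1 or 2 or KCl replicate 1, with DESeq2 and with effective-length offsets. At DIV18 the fitted differences of Rgs11 after KCl pointed the other way, 0.79 (SE 0.182) in vector and 0.52 in WT cultures, and edgeR did not call them. The vector value was called with DESeq2, with no low-count filter and without resting replicate 2. Over the alternatives it ranged from 0.62 to 1.93 and the WT value from 0.30 to 1.28, with the highest in both from protein-coding transcripts only.

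Rgs5 (R4), whose gene lies next to Rgs4 on chromosome 1 (169655501 to 169695813), was called higher in vector against NT at rest. It was at 29.9, 26.9 and 43.9 CPM against 13.6 and 7.66 CPM (log2 fold change 1.65, SE 0.317). It was also called in S586E against NT, at 27.1, 34.5 and 27.2 CPM (1.47, SE 0.316). Without NT replicate 2 these values were 1.29 and 1.12, and neither was called. The S586E call was also lost without S586E replicate 1 (1.53) or 2 (1.35). Rgs3 (R4) was called lower in vector against NT at rest, 14.6, 19.4 and 25.4 CPM against 31.9 and 33.1 CPM (-0.72, SE 0.176), and that call was lost without either NT library or vector replicate 1 or 2, with effective-length offsets, with protein-coding transcripts only and when no other groups were in the fit. Rgs9 (R7) and Rgs19 (RZ) were called in none of the comparisons, with log2 fold changes of -0.15 and -0.23 at DIV7 and 0.04 and -0.17 in resting vector against NT. Rgs13 (R4) was not called either (0.38 and 1.02), and its 4 replicate 3 libraries, at 3.98 to 6.26 CPM, were the highest of their groups. Rgs1, Rgs18, Rgs21 and Rgs22 reached at most 1.004 CPM in any library, and Rgs22, the one of them tested at DIV18, was not called.

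The wider pathway was read from 6 lists of 91 genes: receptors, G alpha subunits, G beta and gamma subunits, effectors, partners of the R7 proteins and other regulators. At DIV7, 9 of the 86 tested genes were called higher and 5 lower after KCl, beside 7.34% of all genes higher and 17.0% either way. Adrb1, a beta-adrenergic receptor, was at 4.82 ± 0.587 CPM (SD, n = 2) after KCl and 10.3 ± 0.482 CPM (SD, n = 2) at rest (log2 fold change -1.09). Adra1a, an alpha-adrenergic receptor, was at 16.1 ± 2.07 against 7.98 ± 0.866 CPM (1.01), and Adcy8, a calcium-stimulated adenylyl cyclase, at 21.5 ± 4.74 against 11.02 ± 1.101 CPM (0.97). The median log2 fold change of the lists was 0.05.

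At DIV18, 90 of the 91 were tested. In vector against NT at rest 8 were called higher, 5 of them receptors, and 8 lower, beside 2.13% of all genes higher and 5.9% either way. In S586E against NT 5 were called higher, all receptors, and 3 lower, beside 1.04% and 2.78%. The largest falls with vector were in Gng12, a G gamma subunit, at 6.75 ± 2.81 CPM (SD, n = 3) against 23.2 ± 7.44 CPM (SD, n = 2; log2 fold change -1.77), in Rgs9bp, an anchor of R7 proteins (-1.61), and in Gng5, a G gamma subunit (-1.12). With S586E, Gng12 (-1.51) and Gng5 (-0.90) were called lower and Cnr1, the cannabinoid receptor of neurons, higher (0.67).

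Under KCl 9 were called lower with vector and 0 higher, 3 lower with WT and 1 lower with S586A. The shares of all genes called either way were 2.67%, 0.201% and 0.43%. Sstr3, a somatostatin receptor, had the largest fall, at 25.8 ± 4.02 CPM (SD, n = 3) with vector and 43.5 ± 9.22 CPM (SD, n = 2) in NT (log2 fold change -0.75). Adora1, an adenosine receptor coupled to Gi, was at 299 ± 26.9 CPM (SD, n = 3) with vector and 451 ± 0.351 CPM (SD, n = 2) in NT (log2 fold change -0.59). Adcy5, an adenylyl cyclase that Gi inhibits, was at 154 ± 6.65 against 232 ± 0.762 CPM (-0.59), and it was also called with WT (-0.53) and with S586A (-0.44). The other genes called with WT were Adora1 (-0.47) and Grk3, a receptor kinase (-0.47). No list gene was called in any of the other comparisons with edgeR.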

How the data were processed

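RNA-seq tables of 24 libraries were analysed (4 at DIV7, 20 at DIV18). Per the submitters' processing notes, kallisto, cutadapt and FastQC were used; the genome build and annotation are not given in the sources used here. Per the file headers, each deposited table gives an estimated count, a TPM value and an effective length for each transcript. The estimated counts and TPM were made by the authors with kallisto. Of 142552 transcripts, 141429 (99.2%) matched GENCODE M21 (GRCm38). The 1123 others held at most 0.467% of a library's counts and were left out.

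The estimated counts of a gene's transcripts were added and rounded to whole numbers. Tests used edgeR 4.0.16 in R 4.3.3 (quasi-likelihood F test, two-sided, TMM, filterByExpr, adjusted p under 0.05 over all genes), with DIV7 fitted alone and the 8 DIV18 groups fitted together. At DIV7 the common biological coefficient of variation was 6.44% (2 residual degrees of freedom), and at DIV18 14.6% (12). Standard errors come from the F statistic. In all, 18 contrasts were fitted. TPM values, deposited by the authors, were summed per gene and used only to compare levels between genes. Effective lengths, deposited as a further column, served only for length offsets.

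On simulated counts with 200 genes changed by 1 on the log2 scale, edgeR recovered 81.5% for the DIV7 comparison (39819 genes; 15.1% of calls false), 69.5% for vector against NT at rest (41147 genes; 7.95%) and 67.5% for WT addback against vector at rest (41147 genes; 4.93%).

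The members, the gene lists and the tests were chosen with earlier results of these data known. Named genes were all members, Smarcc2 and 6 stimulus genes as checks, the other Rgs genes that entered a fit, up to 3 called pathway genes with the largest fold change per comparison (mean of at least 1 CPM), and for each member the 2 protein-coding genes most alike.

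The alternatives tried were DESeq2 1.42.0, median-of-ratios size factors, no low-count filter, effective-length offsets, protein-coding transcripts only, the replicate number as a block, only the groups compared, and leaving out each library in turn. Leaving out all replicate 3 libraries was added after the data were seen. Same-numbered libraries were checked for pairing by the correlation, across genes, of their deviations from group means. With 3 shared numbers the correlations were 0.15, 0.10 and 0.30 for vector rest and KCl, where only replicate 3 matched its own number best. They were 0.35, 0.14 and 0.34 for vector and S586E at rest and 0.15, 0.17 and 0.31 for vector and WT under KCl. There each library matched its own number best. The labels do not say what equal numbers share, so pairing is not established and the main fits use none.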

Additional observations from a re-analysis of the deposited data

Results flagged for a closer look

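The KCl difference of Rgs7 had opposite directions in different cultures, with no overlap between states in any of them. Its log2 fold change was 0.31 at DIV7 and 0.11 in NT cultures at DIV18, where both depolarized libraries were higher, and -0.10 in vector and -0.079 in WT addback cultures, where all depolarized libraries were lower. The vector response minus the NT response was -0.21 (SE 0.115), a description since these comparisons helped choose the members. The differences between the other cultures were not tested. How many of all genes have such opposite directions without overlap was not counted.

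Rgs10 showed the same kind of opposition. Its log2 fold change with KCl was 0.13 at DIV7 and 0.21 in NT cultures, with every depolarized library higher, and -0.42 in WT addback cultures, with every depolarized library lower. In vector cultures it was -0.34, with overlapping groups. The WT addback response was not tested against those of DIV7 and NT cultures. DIV7 and DIV18 also differ in RNA selection.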

How the results depend on the processing

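Over the alternatives, 217 of 242 counts of called members stayed within 1.5 times the reported count, and 25 in 9 comparisons did not. Of 1872 alternative log2 fold changes of Rgs genes, 1790 were counted as unchanged. In the comparisons that chose the members this meant a shift smaller than the spread between libraries. In the other comparisons it meant that the call stayed the same, whatever the shift. No called direction was reversed. At DIV7 the count of 2 became 4 with no low-count filter (Rgs4 and Rgs7 added) and ran from 1 to 4 when a library was left out. In vector against NT at rest the count of 3 became 4 with no filter (Rgs4 and Rgs8 added, Rgs7 lost), 1 (Rgs2) with length offsets and 1 (Rgs2) when only the compared groups were fitted, and ran from 0 to 2 when a library was left out. In S586E against NT the count of 1 became 2 with no filter and 2 with only the compared groups (Rgs4 added), 0 with length offsets, and ran from 0 to 1 when a library was left out. With no filter 1 member was called in vector KCl against rest (Rgs8), in vector (Rgs16), WT (Rgs4) and S586A (Rgs8) against NT under KCl, in WT addback against vector at rest (Rgs12, log2 fold change 0.52) and in S586E against WT (Rgs4). Only the compared groups gave 1 (Rgs16) in vector against NT under KCl. The shares of all genes called in these alternative fits are not given here, so nothing is read from the member counts. The cause was not tested.

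With the replicate number as a block, the count was 4 at DIV7 (Rgs4 and Rgs7 added), 2 in S586E against NT (Rgs4 added; log2 fold change 0.45), 1 in S586A against NT under KCl (Rgs8) and 1 in WT addback against vector at rest (Rgs12, 0.60, adjusted p 0.0435, edgeR). In these comparisons only 2 numbers are shared, so the libraries share only a number. The block changed no other count of members beyond 1.5 times. The share of all genes called with the block is not given here either. Same-numbered libraries had correlations of 0.06 at DIV7, -0.09 in NT and -0.08 in WT between rest and KCl.

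Groups of 2 or 3 libraries limit every comparison, and the lowest counts of the members were those of Rgs14 at DIV7 (from 92 per library) and of Rgs10 at DIV18 (from 58).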
